A study of Mus musculus with 14 samples.

Results

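Guanylate-binding proteins (GBPs) and immunity-related GTPases (IRGs) are large GTPases that cells make after interferon signalling and that assemble on the membranes of vacuoles holding microbes. Interferon receptors act through JAK kinases, STAT proteins and interferon regulatory factors (IRFs), which bind short promoter elements (ISRE and GAS) in front of these genes. In brain tissue, microglia, astrocytes and endothelium can all switch them on.

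The 10 genes described here, Gbp2, Gbp3, Gbp5, Gbp7, Irgm1, Irgm2, Igtp, Iigp1, Ifi47 and Gm4841, were chosen by symbol from the 13866 genes of the deposited count table, and all 10 were among the 11852 genes tested. RNA was sequenced from whole brain tissue of mice aged 19 days in 4 groups. WT + PBS (n = 3) and WT + CBE (n = 3) mice were C57BL/6JOlaHsd, and MyTrMaSt + PBS (n = 3) and MyTrMaSt + CBE (n = 5) mice lacked Myd88, Ticam1 (Trif), Mavs and Tmem173 (Sting), 4 adaptors through which pattern recognition receptors induce type 1 interferon. Conduritol B-epoxide (CBE), an irreversible inhibitor of acid beta-glucosidase used to model neuronopathic Gaucher disease, was given daily at 100 mg per kg body weight from day 8, and controls received PBS. The WT mice came from a supplier and no littermate controls are described, so the 4 missing adaptors cannot be told apart from other differences between the strains. Because brain tissue was sequenced in bulk, fewer cells of a type and less RNA per cell cannot be told apart.

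Sequencing depth lay between 1290616 counts (WT + PBS replicate 1) and 3704691 counts (MyTrMaSt + PBS replicate 2). Levels are given as CPM, the counts divided by the scaled library size and set to a common depth. Of the 4 adaptor genes, Myd88 was at 3.1 to 4.48 CPM in MyTrMaSt + PBS against 9.91 to 17.1 in WT + PBS (log2 fold change -1.66, adjusted p = 0.0602) and was lower in MyTrMaSt + CBE than in WT + CBE (log2 fold change -1.77, adjusted p = 0.000294), whereas Ticam1, Mavs and Tmem173 did not pass the test in either genotype comparison. Tmem173 was at 5 to 7.02 CPM in MyTrMaSt + PBS and 0.899 to 2.48 in WT + PBS (adjusted p = 0.101). The libraries read transcript 3' ends, and where each allele is altered is not given in the sources used here, so these levels do not check the labels. By Xist and Y-linked transcripts the 3 WT + PBS libraries were male, WT + CBE held 1 male library of 3, MyTrMaSt + PBS none of 3 and MyTrMaSt + CBE 1 of 5, so sex differed between the groups. WT + PBS replicate 1, the shallowest library, had 0 counts of Gbp2, Irgm2, Iigp1 and Ifi47. Results without it are given beside the first comparison and the comparison after PBS.

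The genes lie in families. Gbp5, Gbp7, Gbp3 and Gbp2 follow each other on the plus strand of chromosome 3 (GENCODE M21 on GRCm38, chr3:142493978-142638008). Irgm1 (chr11:48861968-48871683, minus strand), Ifi47 (chr11:49076587-49096974, plus strand), Igtp (chr11:58199556-58207591, plus strand) and Irgm2 (chr11:58199618-58222782, plus strand) are on chromosome 11, and Iigp1 and Gm4841 lie on another chromosome. All 10 are annotated as protein coding. Igtp and Irgm2 share 162 exonic bases, but none in the last 300 bases, the end that these libraries read. Family members are similar in sequence, and reads that map to several of them had been removed by the authors.

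Promoter stretches are shown as a description, with no test. RefSeq windows (GRCm38.p6) of 250 bases before to 50 after the transcription start were searched on both strands for an ISRE-like motif (GAAA, 2 bases of any kind, then GAAA) and for the GAS-like motifs TTCNNNGAA and TTCNNGAA. Capitals mark every match in the stretch, so a match on the reverse strand is printed as its complement, and neighbouring matches may overlap. Of the 8 genes with a window described here, 7 held the ISRE-like motif, and windows of Iigp1 and Gm4841 are not reported. The 8 genes have 9 windows, and 3.44% of all 32851 windows held the motif. The genes were chosen from families that interferon induces, so the counts are no test of enrichment. Stretches of the 7 genes follow.
Gbp5: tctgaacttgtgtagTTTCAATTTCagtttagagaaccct
Gbp7: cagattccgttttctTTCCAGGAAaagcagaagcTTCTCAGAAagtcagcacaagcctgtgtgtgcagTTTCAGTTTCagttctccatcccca
Gbp3: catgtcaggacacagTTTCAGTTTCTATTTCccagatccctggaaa
Gbp2: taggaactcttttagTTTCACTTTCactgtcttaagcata
Irgm1: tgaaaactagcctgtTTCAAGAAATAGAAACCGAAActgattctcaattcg
Igtp: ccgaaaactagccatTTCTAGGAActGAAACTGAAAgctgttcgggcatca
Irgm2: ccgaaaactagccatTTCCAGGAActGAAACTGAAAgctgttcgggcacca

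The stretches lie at chr3:142496754-142496793 (Gbp5), chr3:142530215-142530307 (Gbp7), chr3:142559984-142560029 (Gbp3), chr3:142620589-142620628 (Gbp2), chr11:48871420-48871470 (Irgm1, minus strand), chr11:58199496-58199546 (Igtp) and chr11:58214887-58214937 (Irgm2), on the plus strand unless stated. A GAS-like motif accompanied the ISRE-like motif in 5 genes, Gbp5, Gbp7, Irgm1, Igtp and Irgm2, and 0.816% of all windows held such a pair. TTCNNNGAA alone was in 8.3% of windows and TTCNNGAA in 8.52%. The windows of Igtp and Irgm2 were nearly alike in the part compared: of 120 bases aligned at the ISRE-like match, 116 (96.7%) were identical, including an unbroken run of 29. Ifi47 had none of the 3 motifs in its window, which says only that these letters are not there. Gbp3 has 2 RefSeq windows and the second held no match.

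**Figure D1:**
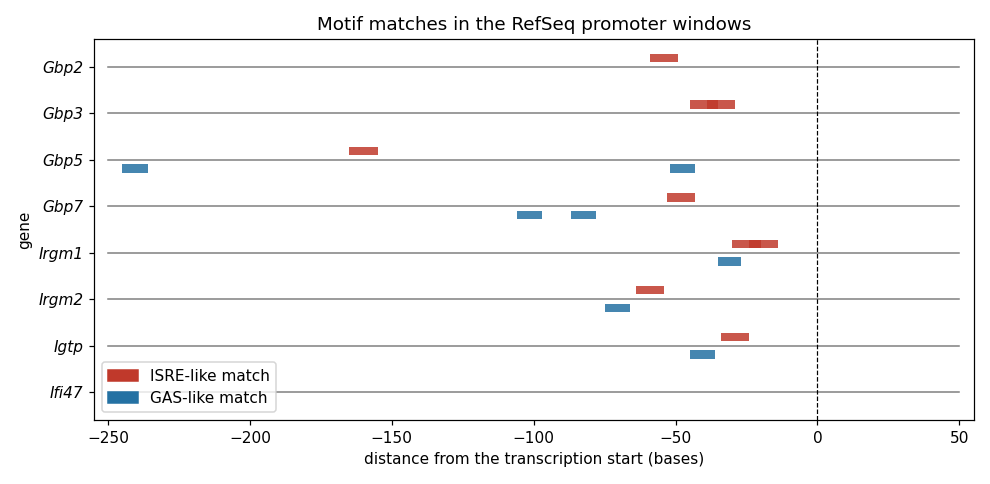
Matches to the ISRE-like and GAS-like motifs in the RefSeq promoter windows of 8 GBP and IRG genes, drawn by distance from the transcription start in bases. The ISRE-like matches of Gbp2, Gbp3, Gbp7, Irgm1, Igtp and Irgm2 sit within the last 64 bases before the start, that of Gbp5 lies further away, and Ifi47 has no match.

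The first comparison asks whether CBE changed these transcripts in WT brain. A gene was called with at least a 2-fold change and an adjusted p below 0.05. Gbp3, Irgm1 and Igtp pass the filter on low counts without the WT + CBE libraries, and all 3 were called higher in WT + CBE, where 4.24% of the 11591 genes that pass likewise were. The other 7 genes were tested only because the WT + CBE libraries carried them past the filter, and WT + CBE is the group where they are high, so their calls are a description and no count over all 10 is read as support. Each of the 7 was called higher as well (5.2% of all tested genes were), and in each of the 10 the 3 WT + CBE libraries were above the 3 WT + PBS libraries (15.1% of tested genes). For the 8 genes that exceeded 3 counts over each group, log2 fold changes ran from 2.73 to 4.59.

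Among the GBPs, Gbp2, which is recruited to vacuole membranes, was at 0, 3.3 and 4.21 CPM in the WT + PBS libraries and at 85.6, 66.4 and 68.5 CPM in the WT + CBE libraries. The WT + CBE values lay close together and far above the controls. The log2 fold change was 4.59 (SE 0.342, adjusted p = 3.89e-08).

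Gbp3 was at 12.6, 7.71 and 5.89 CPM in WT + PBS and rose to 119, 80.5 and 87.1 CPM in WT + CBE, a log2 change of 3.56 (SE 0.252, adjusted p = 2.21e-08). The groups did not overlap. Gbp7, another GBP, was at 0.899, 2.48 and 2.1 CPM in WT + PBS and at 16.8, 9.82 and 19.2 CPM in WT + CBE (log2 fold change 2.85, SE 0.408, adjusted p = 9.31e-05). Gbp5, which promotes inflammasome assembly, was close to absent from the controls, with 0, 0 and 1 counts in WT + PBS. The WT + CBE libraries held 27, 12 and 21 counts of it, which is 7.83, 5.61 and 12.6 CPM. The ratio of summed counts was 58.9, with a 95% counting interval from 10.2 to 2366 (adjusted p = 4.51e-05).

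Among the IRGs, Irgm1, a regulatory IRG that holds effector IRGs inactive on the cell's own membranes, was at 4.5, 19 and 14.3 CPM in WT + PBS and at 203, 133 and 145 CPM in WT + CBE. The groups were far apart and the log2 fold change was 3.52 (SE 0.311, adjusted p = 3.00e-07). Igtp, also regulatory, was at 4.5, 10.7 and 15.6 CPM in WT + PBS and at 88.2, 60.8 and 76.3 CPM in WT + CBE (log2 fold change 2.76, SE 0.31, adjusted p = 5.70e-06). Irgm2, the remaining regulatory member, was at 0, 1.93 and 2.52 CPM in WT + PBS and at 15.4, 7.48 and 13.2 CPM in WT + CBE, with a log2 change of 2.73 (SE 0.457, adjusted p = 0.000475).

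The effector IRGs also rose. Ifi47 was at 0, 2.2 and 2.1 CPM in WT + PBS and at 35.4, 28.5 and 28.2 CPM in WT + CBE, a log2 change of 4.08 (SE 0.371, adjusted p = 4.17e-07). Iigp1 gave 0, 2 and 2 counts in WT + PBS and 39, 23 and 12 counts in WT + CBE, a log2 change of 4.05 (SE 0.546, adjusted p = 9.04e-05). Gm4841, a predicted IRG, had 0 counts in the 11 libraries other than WT + CBE, and 19, 9 and 13 counts in WT + CBE. Its level was at least 13.4-fold higher than in WT + PBS, taking the 3 counts over the group that a count of 0 allows (adjusted p = 0.0015).

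With the Xist level of each library in the model 9 of 10 genes were called (4.32% of all tested genes were), all but Irgm2 (log2 fold change 1.87, adjusted p = 0.108). Without WT + PBS replicate 1, 684 of 11852 tested genes were called higher. Gbp3, Irgm1 and Igtp were still called, with log2 fold changes of 3.80, 3.27 and 2.56. The other 7 genes, tested only through the WT + CBE libraries, kept their calls too, with 4.33 for Gbp2 and 2.48 for Irgm2. Within the male libraries (3 WT + PBS and 1 WT + CBE, the lone library being assumed to vary like the other groups), 8 of 10 genes were called against 3.23% of tested genes, Irgm2 (log2 fold change 2.04, adjusted p = 0.114) and Gm4841 (adjusted p = 0.0527) falling short.

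**Figure D2:**
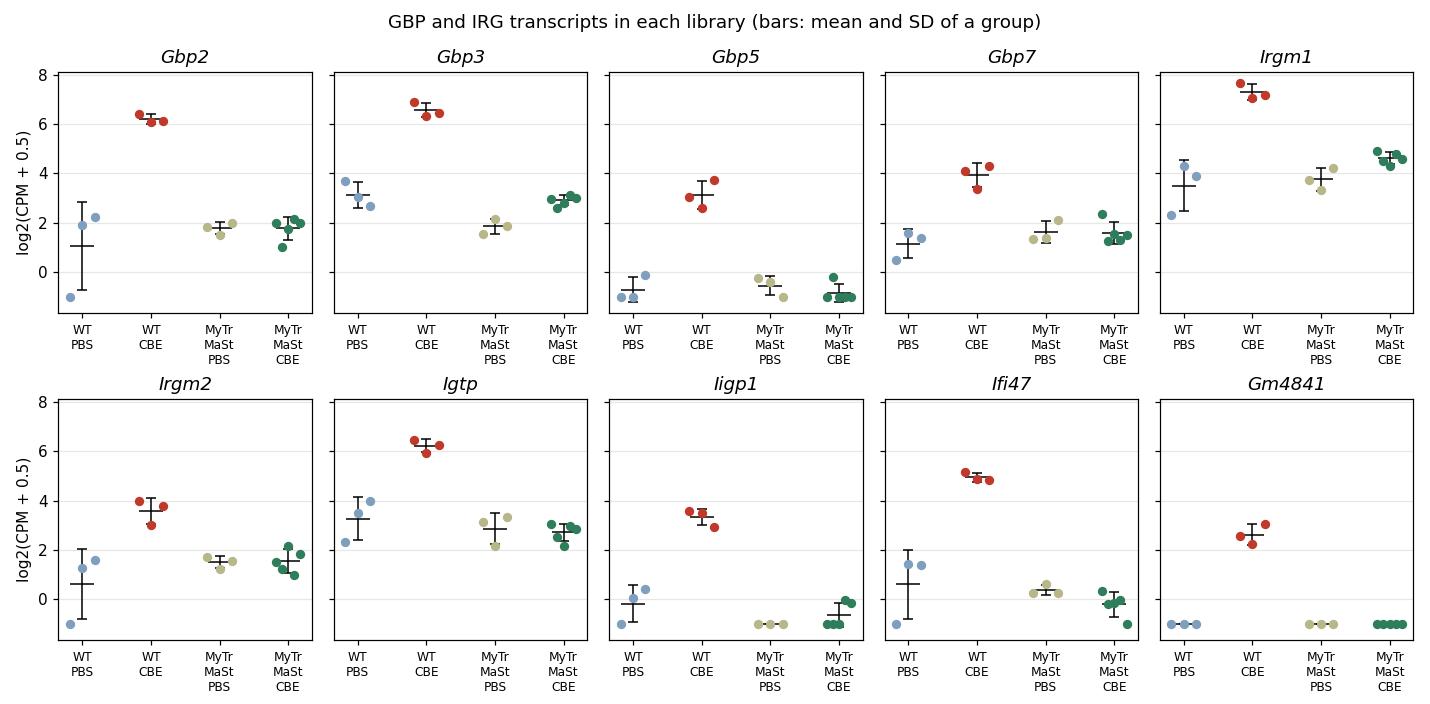
Level of each GBP and IRG gene in every library as log2(CPM + 0.5), with points for libraries and bars for the mean and SD of a group (n = 3, 3, 3 and 5). For all 10 genes the WT + CBE libraries lie above those of WT + PBS (15.1% of tested genes) and MyTrMaSt + CBE (6.02%). Of the 10 genes, 7 were tested only through the WT + CBE libraries. For Gbp3 the MyTrMaSt + PBS libraries lie below those of WT + PBS (10.1% of tested genes). They also lie below those of MyTrMaSt + CBE for Gbp3 and Irgm1 (11.8%).

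The second comparison asks what CBE did in mice lacking the 4 adaptors. Of the 10 genes, 1 was called higher in MyTrMaSt + CBE, where 3.23% of tested genes were called higher. In 2 genes, Gbp3 and Irgm1, the 5 MyTrMaSt + CBE libraries lay above the 3 MyTrMaSt + PBS libraries, against 11.8% of tested genes. The gene called was Gbp3. Over the 7 genes that exceeded 3 counts over each group the median log2 fold change was 0.03, with a range from -0.96 to 1.11.

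Gbp3 was at 2.41, 3.95 and 3.16 CPM in MyTrMaSt + PBS and at 7.38, 5.62, 6.46, 8.34 and 7.41 CPM in MyTrMaSt + CBE. The groups did not overlap, and the log2 fold change was 1.11 (SE 0.302, adjusted p = 0.0308). The call was lost when any of MyTrMaSt + PBS replicates 1, 2 and 3 or MyTrMaSt + CBE replicates 1, 4 and 5 was left out, where the adjusted p ran up to 0.118. The log2 fold change stayed between 0.95 and 1.32 whichever library was left out. MyTrMaSt + CBE replicate 4 is the male library of that group.

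Irgm1 was at 12.7, 9.48 and 18.3 CPM in MyTrMaSt + PBS and at 29.1, 22.1, 19, 27.5 and 23.8 CPM in MyTrMaSt + CBE. The lowest treated library was just above the highest control, with a log2 change of 0.86 (SE 0.288, adjusted p = 0.0764). Gbp2 was at 3.1, 2.37 and 3.51 CPM in MyTrMaSt + PBS and at 3.5, 1.5, 2.83, 3.93 and 3.51 CPM in MyTrMaSt + CBE. These ranges overlapped throughout (log2 fold change 0.03, SE 0.41, adjusted p = 0.977).

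The remaining members with a fold change did not pass the test either. Igtp averaged 7.23 ± 2.91 CPM (SD, n = 3) in MyTrMaSt + PBS and 6.21 ± 1.55 CPM (SD, n = 5) in MyTrMaSt + CBE, with a log2 change of -0.19 (SE 0.346). For Gbp7 the log2 fold change was 0.02 (SE 0.414) and for Irgm2 0.16 (SE 0.457). Ifi47 had 8 counts over MyTrMaSt + PBS and 5 over MyTrMaSt + CBE, and its log2 fold change of -0.96 carried an SE of 0.71. Gbp5 had 2 counts over the group and then 1, Iigp1 0 and then 2, and Gm4841 0 in both, so no fold is given for these 3 genes and a change was not detectable at this depth.

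The interaction tests the difference between the responses to CBE in the 2 genotypes. For Gbp3, Irgm1 and Igtp, which do not need the WT + CBE libraries to pass the filter, it was called with a smaller response in MyTrMaSt mice, as for 0.336% of the genes that pass likewise. It was also called in that direction for Gbp2, Gbp7 and Ifi47 (0.413% of all tested genes were), which were tested only through the WT + CBE libraries. Over the 7 genes with enough counts the log2 interaction ran from -5.04 to -2.46.

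**Figure D3:**
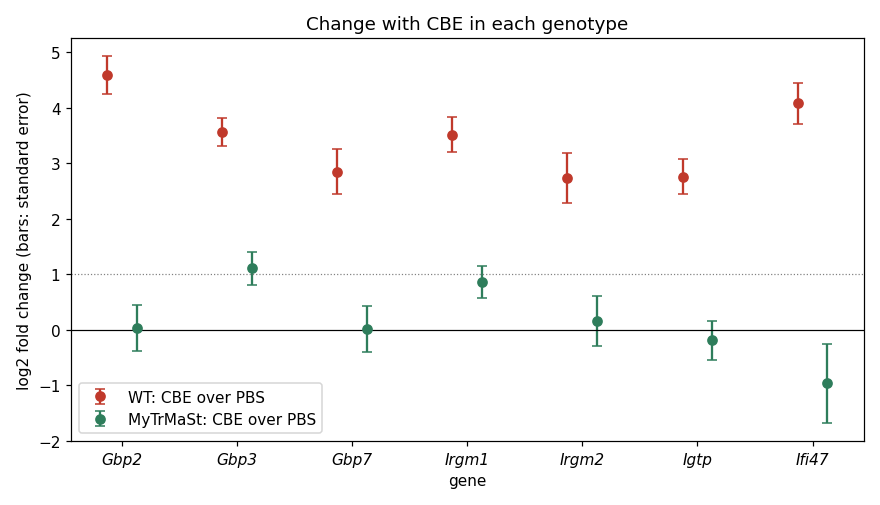
Log2 fold change of CBE over PBS in WT (red) and MyTrMaSt (green) brain, shown for 7 genes that exceeded 3 counts over each group, with bars for the standard error and a dotted line at 2-fold. The WT values lie between 2.73 and 4.59, and the MyTrMaSt values between -0.96 and 1.11.

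Among the 7 genes with enough counts, Ifi47 had the largest interaction, -5.04 on the log2 scale (SE 0.889, adjusted p = 0.0111). Gbp2 came second with -4.56 (SE 0.571, adjusted p = 0.00091). Igtp followed with -2.95 (SE 0.467, adjusted p = 0.00502), Gbp7 with -2.83 (SE 0.605, adjusted p = 0.0427), Irgm1 with -2.65 (SE 0.419, adjusted p = 0.00502) and Gbp3 with -2.46 (SE 0.416, adjusted p = 0.00838). For Irgm2 the interaction was -2.58 (SE 0.672, adjusted p = 0.133) and not called by edgeR or limma voom (adjusted p = 0.128), whereas DESeq2 called it (-2.63, adjusted p = 0.045). DESeq2 and limma voom each called 7 of the 10 genes, but DESeq2 called more of all genes, 0.717% of those tested in this direction, against 0.405% with limma voom.

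With the Xist level of each library in the model, Gbp2 alone of the 10 kept its call (-4.63, adjusted p = 0.0325), and over all tested genes the calls in this direction fell from 49 to 10 (0.0844%). The interactions of 4 genes that lost it were close to those above, -2.73 for Irgm1 (adjusted p = 0.0628), -4.95 for Ifi47 (adjusted p = 0.0607), -2.87 for Igtp (adjusted p = 0.0927) and -2.30 for Gbp3 (adjusted p = 0.109), with larger standard errors. Gbp7 moved further, to -1.97 (adjusted p = 0.387). Without MyTrMaSt + PBS replicate 2, 3 of the 6 calls remained, those of Gbp2, Irgm1 and Igtp, and the interaction was -2.24 for Gbp3 (adjusted p = 0.0768) and -4.79 for Ifi47 (adjusted p = 0.113). The call of Gbp7 was kept only when the library left out was WT + PBS replicate 1, WT + CBE replicate 2 or MyTrMaSt + CBE replicate 1, and its adjusted p reached 0.253 without MyTrMaSt + PBS replicate 3. Its interaction stayed between -3.14 and -2.50 whichever library was left out.

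Between the genotypes after CBE, Gbp3, Irgm1 and Igtp were lower in MyTrMaSt + CBE than in WT + CBE, where 1.26% of the genes that pass the filter without the WT + CBE libraries were called lower. The other 7 genes, tested only through the WT + CBE libraries, were called lower too (1.93% of all tested genes were). In each of the 10 the 5 MyTrMaSt + CBE libraries lay below the 3 WT + CBE libraries (6.02% of tested genes). Log2 fold changes of the 7 genes that exceeded 3 counts over each group ran from -6.09 (Ifi47, adjusted p = 4.39e-09) to -2.22 (Irgm2, adjusted p = 0.000844). Summed counts of Gbp5 were 60 in WT + CBE and 1 in MyTrMaSt + CBE (ratio 102, counting interval from 17.6 to 4094), and those of Iigp1 were 74 and 2 (ratio 62.9, interval from 16.8 to 529). In WT + CBE, Gm4841 was at least 23.2-fold higher. All 10 calls were kept in female libraries alone, 2 of WT + CBE against 4 of MyTrMaSt + CBE, where 1.65% of tested genes were called lower. These comparisons share their CBE and PBS libraries with those above.

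Between the genotypes after PBS, 0 of 10 genes were called by edgeR, where 0.16% of tested genes were called in either direction. DESeq2 called 1 of the 10, with 0.97% of tested genes called, and limma voom 0, with 0.127% called. Gbp3 had the lowest p in edgeR, with a log2 change of -1.31 (SE 0.333, adjusted p = 0.11). Iigp1 came next, with 4 counts in WT + PBS and 0 in MyTrMaSt + PBS (adjusted p = 0.201). Without WT + PBS replicate 1, 0 of 10 genes were called, as were 19 of 11852 tested genes. The log2 changes of the 7 genes with enough counts were then -1.09 (Gbp3), -0.87 (Igtp), -1.32 (Ifi47), -0.32 (Gbp2), -0.35 (Irgm1), 0.18 (Gbp7) and 0.09 (Irgm2). For Gbp3 the 3 MyTrMaSt + PBS libraries were below the 3 WT + PBS libraries, as for 10.1% of tested genes, and DESeq2 called it (adjusted p = 0.0371). The male and female libraries here divide exactly as the genotypes do, so sex and genotype cannot be told apart in this comparison.

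Summed over the 10 genes, the level was 39.5 ± 14.7 CPM (SD, n = 3) in WT + PBS, 487 ± 92.2 CPM (n = 3) in WT + CBE, 32.9 ± 8.22 CPM (n = 3) in MyTrMaSt + PBS and 46.5 ± 7.39 CPM (n = 5) in MyTrMaSt + CBE. The WT + CBE range, 407 to 588 CPM, stood far above the other 3 ranges, which overlapped. Microglia markers, a list of 8 genes all present, also moved with CBE: in WT mice their sum was 291 to 333 CPM after PBS and 912 to 1085 CPM after CBE, and in MyTrMaSt mice 247 to 278 CPM and 603 to 706 CPM. Of them, 4 were called higher in WT + CBE and 4 in MyTrMaSt + CBE, and none was called in the interaction. Aif1 was called lower in MyTrMaSt + CBE than in WT + CBE (log2 fold change -1.60, adjusted p = 0.000363) and Trem2 lower in MyTrMaSt + PBS than in WT + PBS (-1.29, adjusted p = 0.0114).

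The ratio of the summed GBP and IRG level to the summed microglia markers was 0.0772 to 0.164 in WT + PBS and 0.447 to 0.542 in WT + CBE. In MyTrMaSt + PBS it was 0.0901 to 0.168 and in MyTrMaSt + CBE 0.0581 to 0.0855, so the MyTrMaSt + CBE ratios all lay below those of their PBS group. Among other lists, 2 of 8 T and NK cell markers were listed, with at most 13 counts in a WT + CBE library and at most 4 in any library of the other groups. Their summed level was 0 to 3.77 CPM in WT + CBE, so it was highest in a library of the group where the GTPases are high, and 0 to 0.275 CPM in WT + PBS. Of 6 monocyte and neutrophil markers 1 was listed, at up to 7 counts (MyTrMaSt + CBE). Summed astrocyte markers went from 2441-3143 CPM after PBS to 3758-4057 CPM after CBE in WT mice, and from 3007-3417 to 4015-4331 CPM in MyTrMaSt mice. Summed oligodendrocyte markers went from 16610-19920 to 10050-13060 CPM in WT mice and from 16430-19710 to 12350-16560 CPM in MyTrMaSt mice, and summed neuron markers from 4494-5359 to 3661-4074 CPM and from 5121-5976 to 4130-4633 CPM. None of the 6 genes in either list was called with CBE, whereas 2 of 6 astrocyte markers were called higher in WT (Gfap and Aqp4) and 1 in MyTrMaSt (Gfap). The summed PBS and CBE ranges overlapped in both genotypes for endothelium and choroid plexus markers, of which 1, the endothelial Tek, was called lower with CBE in MyTrMaSt. The part of cell numbers in the GBP and IRG levels was not tested.

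**Figure D4:**
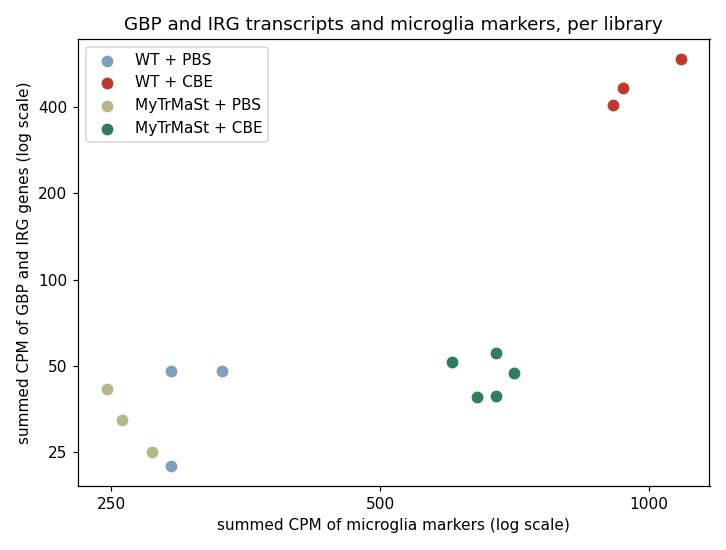
Summed CPM of the 10 GBP and IRG genes against the summed CPM of 8 microglia markers in each library, on log axes. The CBE libraries of both genotypes lie to the right of the PBS libraries, and the WT + CBE libraries alone lie higher, between 407 and 588 CPM.

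The related genes of the list were looked up too. Of 24 other GBP, IRG and related GTPases, 4 were listed and 1, Irgq, passed the filter on low counts, and it was not called in any comparison. Gbp9 had 14, 10 and 3 counts in WT + CBE and at most 2 in any other library. Gm12250 had 11, 4 and 5 counts in WT + CBE and at most 1 elsewhere, and Gm5431 had 8, 2 and 3 in WT + CBE and at most 2 elsewhere. These 3 low-count genes were not tested.

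The pathway genes upstream were next. The 4 interferon receptor subunits had no calls: Ifngr1 changed by 0.73 on the log2 scale in WT (adjusted p = 0.0296, below 2-fold), Ifnar2 by 0.81 (adjusted p = 0.00885, below 2-fold), and Ifngr2 by -0.24 (adjusted p = 0.544). The interferons of the list, Ifng, Ifnb1 and Ifna4, were not analysed here, so no level is given for them. Il12a and Il18, cytokines that induce interferon gamma, had no call. Among 11 JAK-STAT and IRF factors, 5 were called higher in WT + CBE (Stat2, Irf1, Irf7, Irf8 and Irf9), 1 in MyTrMaSt + CBE (Irf8), and 3 had a called interaction (Stat2, Irf7 and Irf9). The median log2 fold change of the 11 in WT was 0.74.

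Irf9, a DNA-binding partner of STAT proteins, rose from 17.8 ± 5.44 to 138 ± 26.8 CPM in WT (log2 fold change 2.87, adjusted p = 2.04e-07). In MyTrMaSt it was at 12 ± 2.31 CPM (SD, n = 3) after PBS and 17.2 ± 4.15 CPM (SD, n = 5) after CBE (log2 fold change 0.54, adjusted p = 0.185), and the interaction was -2.33 (adjusted p = 0.00311).

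Irf8, which myeloid cells express, rose by 3.22 on the log2 scale in WT (adjusted p = 1.32e-05) and by 1.96 in MyTrMaSt (adjusted p = 0.00194). The interaction of Irf8, -1.26, was not called (adjusted p = 0.377). Irf1, which activates many GBP promoters, rose in WT (1.48 on the log2 scale, adjusted p = 0.00829) and changed by 0.56 in MyTrMaSt (adjusted p = 0.339), and its interaction was -0.92 (adjusted p = 0.441). Stat2, a partner of Irf9, rose by 1.65 in WT (adjusted p = 1.57e-05) and changed by -0.04 in MyTrMaSt (adjusted p = 0.924), and the difference between these changes was called (-1.70, adjusted p = 0.0052). Irf7, which amplifies type 1 interferon production, rose by 4.73 in WT (adjusted p = 3.89e-08) and changed by 1.14 in MyTrMaSt (adjusted p = 0.203). The difference was called too (-3.59, adjusted p = 0.0317). Between the genotypes after CBE, 5 of the 11 factors were called lower in MyTrMaSt (1.93% of all tested genes were). Among them were Irf8 (-1.11, adjusted p = 0.0294) and Irf1 (-1.46, adjusted p = 0.00568), whose interactions were not called.

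**Figure D5:**
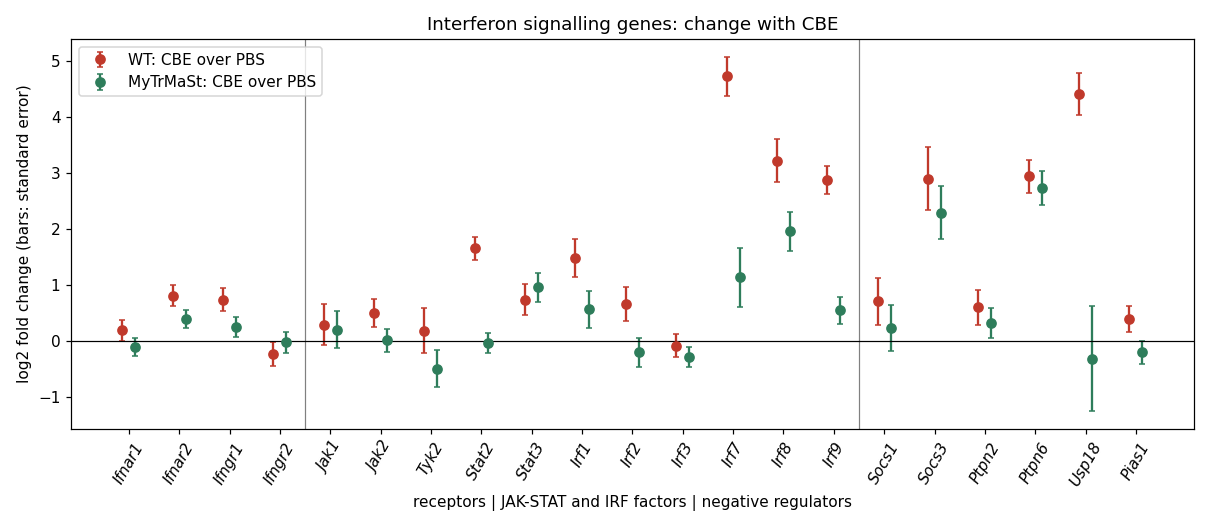
Log2 fold change of CBE over PBS, with standard errors, for interferon receptors, JAK-STAT and IRF factors and negative regulators in WT (red) and MyTrMaSt (green) brain. Stat2, Irf7 and Irf9, which have a called interaction, separate between the genotypes. Usp18 separates as well, with few counts in MyTrMaSt and no called interaction, while Ptpn6 and Socs3 rose in both.

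Negative regulators of interferon signalling had 3 of 6 called in WT (Socs3, Ptpn6 and Usp18) and 2 in MyTrMaSt (Socs3 and Ptpn6), with no interaction called. Usp18 rose by 4.41 on the log2 scale in WT (adjusted p = 2.08e-07), and its interaction of -4.74 was not called (adjusted p = 0.139). It had 4 counts over each MyTrMaSt group and 362 over WT + CBE. Between the genotypes after CBE, Usp18 was called lower in MyTrMaSt (-7.05, adjusted p = 1.57e-09), as was Ptpn6 (-1.21, adjusted p = 0.00158). Among the genes that act beside these GTPases, 0 of 10 that load them on membranes by ubiquitin-like conjugation and 0 of 5 prenylation enzymes were called in either genotype. Map1lc3a, an LC3 protein, was at -1.05 on the log2 scale in WT (adjusted p = 0.0508) and 0.20 in MyTrMaSt (adjusted p = 0.73). Gabarapl2, of the same protein family, was below 2-fold at -0.86 in WT (adjusted p = 0.0304) and -0.82 in MyTrMaSt (adjusted p = 0.0217), as was the farnesyltransferase subunit Fntb at -0.47 in WT (adjusted p = 0.0374). Of 6 ubiquitin and adaptor factors, Trim21 (log2 fold change 2.26, adjusted p = 0.00147) and Lgals3 (5.96, adjusted p = 4.72e-09) rose in WT, and Lgals3 rose in MyTrMaSt as well (4.44, adjusted p = 7.87e-08). Of the 7 caspase-11 and inflammasome genes, 5 were listed and 2 tested, and Gsdmd, the pore-forming gasdermin, rose in WT (1.85, adjusted p = 0.00189).

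The 10 tested genes with the profile most like that of the 10 members, by Pearson correlation of log2 CPM with their mean scaled profile over 14 libraries, were Irf9 (0.98), Tapbp (0.978), Parp10 (0.975), Ifit3b (0.975), H2-D1 (0.974), Eif2ak2 (0.967), Ifi35 (0.966), Epsti1 (0.965), Ifit3 (0.959) and Znfx1 (0.957). The 14 libraries share the same 4 groups, and these correlations are a description with no test. Among the members themselves, each had a correlation between 0.835 (Irgm2) and 0.963 (Igtp) with the mean of the others.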

How the data were processed

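The authors prepared MARSseq libraries (bulk version, 3' ends of transcripts) from brain RNA, sequenced them on a NextSeq-500, mapped reads to mm10 with hisat and kept uniquely mapping reads. HTSeq and cutadapt are named in the submitters' processing notes. The deposited table gives whole read counts per gene. Strand setting, annotation and use of molecular identifiers are not given in the sources used here. The deposited normalized table and the authors' fold change and p value table were not used.

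Counts of the 14 libraries were fitted with edgeR 4.0.16 in R 4.3.3. Genes were kept by filterByExpr, libraries were scaled by TMM, and quasi-likelihood tests of 4 group means gave adjusted p values (Benjamini-Hochberg over all 11852 tested genes). Standard errors were derived from the test statistic. A call needs a 2-fold change and an adjusted p below 0.05 (interaction: adjusted p alone). Where a group held at most 3 counts, a bound or a ratio with a 95% exact counting interval replaced the fold change, and it covers counting error only. Alternatives were RLE factors, DESeq2 1.42.0, limma 3.58.1 voom, other filters, thresholds and samples, a replicate block, an Xist covariate and leaving out each library. Libraries of 1 sex, and the filter on low counts applied without the WT + CBE libraries, were added after seeing the data. The study treats each library as a mouse, and p values measure the spread between these mice. The members and lists were chosen with earlier results of these data known. The named genes are all 10 members, the related GTPases in the table, and from each other list its counts with up to 4 genes of lowest p, plus Ifngr1, Ifngr2 and Irf1, and the 10 genes most alike. A gene of the lists is not reported here and was left out of the list counts. The 4 adaptor genes were added as a look at the genotype labels. Libraries of a group differed by a chi-square per degree of freedom of 2.45 to 22.4 over 19 pairs, above sampling noise. This cannot show that they come from different mice. Counting each library as a sample rests on the study treating each as a mouse. The procedure was tested on simulated data.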

Additional observations from a re-analysis of the deposited data

Results flagged for a closer look

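The difference between the genotypes in the response to CBE passed the interaction test for Gbp3 (-2.46 on the log2 scale), Irgm1 (-2.65) and Igtp (-2.95), where 0.336% of the genes that pass the filter on low counts without the WT + CBE libraries did so in this direction. It also passed for Gbp2 (-4.56), Gbp7 (-2.83) and Ifi47 (-5.04), against 0.413% of all tested genes, but these 3 genes were tested only through the WT + CBE libraries, the group where they are high. For Gbp7, MyTrMaSt + CBE replicate 1 stood apart with 4.66 CPM, its gap to the other libraries exceeding Dixon's 95% critical value. In all, 9 outlier checks were made, of which about 1 in 20 would be marked by chance.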

How the results depend on the processing

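Of the single-gene fold changes recomputed under the alternatives, 712 kept their direction and side of the threshold, 33 lost a call, 2 gained one and 21 changed sign. Asking each library for 10 counts left none of the 10 genes and so gave no value. The count of genes called in MyTrMaSt was 1, and 0 under limma voom, with the replicate block and within libraries of 1 sex, with a range of 0 to 1 over the leave-one-out fits. The 6 interaction calls became 3 with the replicate block and 1 with the Xist level as covariate (58 calls over all genes became 32 and 13), ranged from 3 to 6 over the leave-one-out fits, and were 7 under DESeq2 and limma voom (133 and 58 over all genes). With the block the interactions were -2.69 for Irgm1, -4.71 for Ifi47 and -2.61 for Gbp7, the 3 that lost their call. The 10 genes called in WT became 9 with the Xist level and 8 within libraries of 1 sex. DESeq2 called 1 gene between the genotypes after PBS. Same-numbered libraries of different groups had correlations of deviations from -0.173 to 0.16 over 18 pairs. Libraries of different numbers had -0.216 to 0.217. These ranges overlapped, but deviations from a group mean depend on each other, so pairing by number was not excluded. Beyond the changes given above, the block changed no count of calls among the 10 genes. Changes of sign, of fold changes near 0 and without a call, were found for Gbp2 in MyTrMaSt, -0.19 with the replicate block and -0.061 within libraries of 1 sex, and for Gbp2 after PBS, 0.32 under voom and 0.031 with the Xist level, Gbp7 -0.50 and Irgm2 -0.63 with the Xist level after PBS. Over the leave-one-out fits the log2 fold changes in MyTrMaSt ran from -0.13 to 0.21 for Gbp2, -0.28 to 0.35 for Gbp7, -0.055 to 0.29 for Irgm2 and -0.52 to 0.059 for Igtp, and after PBS from -0.32 to 0.28 for Gbp2 and -0.35 to 0.33 for Irgm1. The cause was not tested. With totals of 1290616 to 3704691 counts, Gbp5, Iigp1 and Gm4841 had at most 3 counts in several groups, where depth limits any comparison.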
